A study of Danio rerio with 12 samples.

Results

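The genes described here are smchd1 and the members of the structural maintenance of chromosomes (SMC) family in early zebrafish embryos. They were found by symbol, without regard to case, and 9 gene identifiers of the 31462 in the deposited tables carried one of the symbols smchd1, smc1a or smc1al, smc1b, smc2, smc3, smc4, smc5 and smc6. Poly-A RNA had been sequenced from AB strain embryos, with RNA from 30 to 50 embryos pooled in each sample. The 4 groups held 3 libraries each, wildtype (wt) and maternal-zygotic smchd1 lof1 mutants (MZ) of a 4-8-cell and of a sphere stage. MZ embryos lack the functional gene product from both the mother and their own genome, and lof1 is 1 CRISPR/Cas9-made line with an out-of-frame lesion in the part of the gene that codes for the GHKL ATPase domain. The labels do not give the ages of the fish or the parents of the wt embryos.

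SMC proteins are long ATPases that pair through a hinge and form ring-like complexes that hold, loop or compact chromosomes. Cohesin is built on SMC1 with SMC3, condensin on SMC2 with SMC4, and the SMC5/6 complex on SMC5 with SMC6. SMCHD1 is the odd member of the family, since it shares the hinge but carries a GHKL-type ATPase in place of the usual one. It is known in mammals for its part in X inactivation and in the silencing of gene clusters. The 4-8-cell embryo lives on RNA laid down by the mother, whereas the sphere embryo has begun to transcribe its own genome, so the early stage shows the maternal supply of each gene and the later one that supply together with the first zygotic RNA.

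Depth ranged from 7829742 expected counts in MZ sphere replicate 1 to 23681822 in wt 4-8-cell replicate 1. MZ sphere replicate 1 also held the largest share of ribosomal RNA counts, 3.98% against at most 0.398% in the other libraries. Within groups, log2 CPM correlated at 0.962 to 0.991 between replicates, and no pair of libraries was as alike as counting noise alone would make them. The highest value was that of MZ sphere replicates 2 and 3, and every other pair was at 0.980 or below. All 12 zygotic blastula markers, genes such as vox and tbx16 that are first transcribed by the embryo, were called higher at sphere in both genotypes, with summed levels of 3.87 to 13.8 CPM (counts scaled to the same library total) at the 4-8-cell stage and of 1070 to 1960 CPM at sphere. The 8 maternal egg markers, among them buc, zar1 and dazl, summed to 4500 to 5160 CPM at the 4-8-cell stage and 3160 to 4200 CPM at sphere. Of these 8, 5 were called lower at sphere in each genotype, but not the same 5. ZAR1 was called lower only in wt (-0.58), and WEE2 only in MZ embryos (-0.34, edgeR adjusted p = 0.0198). In wt 2, WEE2 (0.42) and CCNB1 (0.38), were called higher after TMM scaling but were lower in mean TPM. Over all genes, 24.7% were called higher and 23.6% lower at sphere in wt, and 20% and 19.6% in MZ embryos. Between genotypes, 3 of the 12 zygotic markers were tested at the 4-8-cell stage, and mixl1 was called higher in MZ embryos (1.69, SE 0.33, edgeR adjusted p = 0.0465). Of the 8 egg markers, WEE2 was called lower in MZ sphere embryos (-0.55, SE 0.13, adjusted p = 0.0399). Over all genes, 1.33% were called higher at the 4-8-cell stage and 4.04% lower at sphere. Ovarian follicle markers summed to at most 2.63 CPM and blood markers to at most 1.71 CPM in any library.

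The first question was whether the mutants lacked smchd1 RNA. At the 4-8-cell stage, smchd1 (ENSDARG00000104374) was counted at 262, 224 and 218 CPM in wt and at 7.72, 5.27 and 6.28 CPM in MZ embryos. At sphere, it was counted at 290, 206 and 182 CPM in wt and at 3.42, 4.04 and 3.49 CPM in MZ embryos. CPM here are scaled between libraries with edgeR's TMM factors, a trimmed mean over genes. Every MZ library lay far below every wt library, and the 12 libraries followed their labels.

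smchd1 fell by 5.17 on the log2 scale (SE 0.15, adjusted p = 0.000105, edgeR quasi-likelihood test) in 4-8-cell MZ embryos and fell by 5.95 (SE 0.23, adjusted p = 6.06e-05) in sphere MZ embryos. These differences are 35.9-fold and 61.9-fold. The reads that remained were 2.24% to 3.29% of the wt mean in the 3 early MZ libraries and 1.51% to 1.79% in the 3 later ones. They amounted to 354 and 136 counts over the 3 libraries of each group. The call held at both stages under each alternative run, with log2 fold changes from -4.55 to -6.09. Tables of counts per gene do not show from which part of the transcript the remaining reads came.

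**Figure D1:**
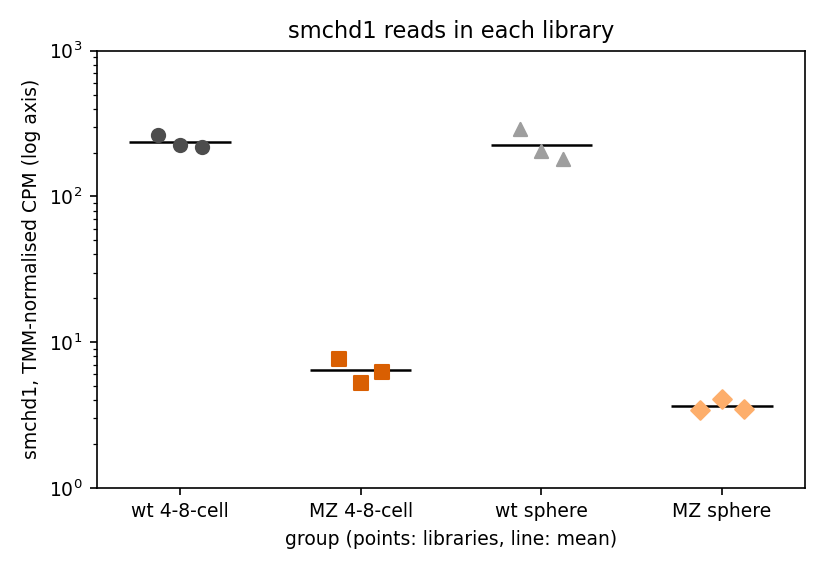
smchd1 in each of the 12 libraries, as TMM-normalised CPM on a log axis, with points for libraries and a line for the mean of the 3 libraries of a group. The 6 wt libraries sit between 182 and 290 CPM and the 6 MZ libraries between 3.42 and 7.72 CPM.

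In wt embryos smchd1 belonged to the middle of its family. Levels of different genes are compared per transcript length, as TPM (counts divided by gene length and scaled to the same total). At the 4-8-cell stage smchd1 stood at 64.9, 59.9 and 58.4 TPM, higher than 86.2% to 88.2% of all genes. The condensin subunit genes led the family, with smc4 at 220 ± 15.9 TPM (SD, n = 3) and smc2 at 189 ± 12.4 TPM. The cohesin subunit genes came next, SMC1A at 146 ± 3.98 TPM and smc3 at 119 ± 7.08 TPM. All 4 were abundant maternal messages, each higher than at least 93.9% of all genes in every wt 4-8-cell library.

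smc5 followed at 82.5 ± 7.99 TPM, then smchd1 at 61.1 ± 3.39 TPM. Below smchd1 the family broke off: the next gene, smc6, had 2.76 ± 0.44 TPM, 22.1-fold less. smc1b, the SMC1 variant of meiotic cohesin, had 1.19 ± 0.34 TPM. All 8 pairs of neighbours in this order were apart, in that the ranges of their 3 libraries did not overlap.

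The symbol SMC1A stood at 2 identifiers, and which of them is smc1a and which smc1al is not given by the tables used here. They are named by level. The SMC1A major copy (ENSDARG00000058203) is the one above, and the SMC1A minor copy (ENSDARG00000055754) had 0.04, 0.05 and 0.09 TPM in the wt 4-8-cell libraries, from 8 counts in all. Nearly all SMC1 RNA in these embryos was thus counted under 1 of the 3 identifiers for an SMC1 gene.

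At sphere the wt order was the same at both ends, with smc4 first at 165 ± 12.6 TPM and the SMC1A minor copy last at 0.04 ± 0.053 TPM. The SMC1A major copy, at 127 ± 8.11 TPM, and smc2, at 116 ± 8.69 TPM, had changed places, but their libraries overlapped. smc5, at 44.4 ± 2.82 TPM, and smchd1, at 40.4 ± 9 TPM, overlapped too. In MZ embryos smchd1 dropped from the sixth to the seventh place, below smc6, at 1.65 ± 0.25 TPM at the 4-8-cell stage and 0.72 ± 0.056 TPM at sphere.

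**Figure D2:**
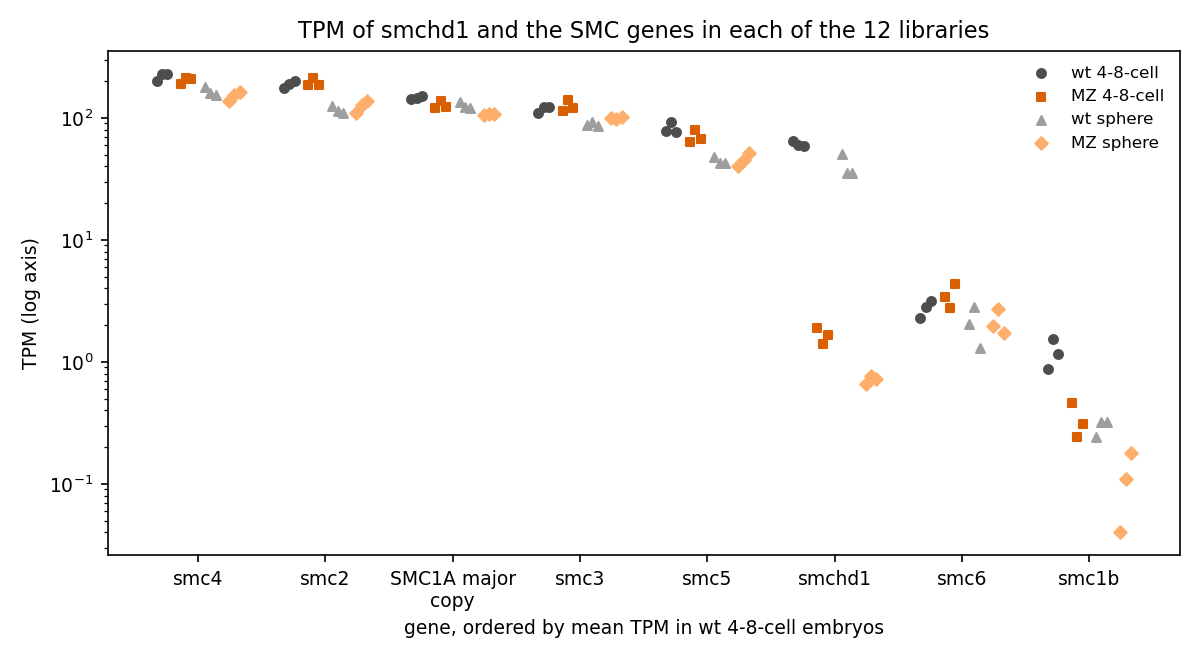
TPM on a log axis of smchd1 and 7 SMC genes in each library, in the order of their wt 4-8-cell means, with the SMC1A minor copy left out because 2 of its libraries are at 0. smc4, smc2, the SMC1A major copy, smc3 and smc5 lie between 40.2 and 230 TPM in all 12 libraries, smc6 between 1.3 and 4.38 TPM, and smchd1 is the gene whose MZ libraries stand apart from its wt libraries by the widest gap.

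The genotype comparison asked whether loss of smchd1 came with a change in the genes of its family. Of the 8 members tested at each stage, smchd1 was the 1 member called, and it was lower. Over all genes, 1.33% were called higher and 1.7% lower at the 4-8-cell stage, and 3.75% higher and 4.04% lower at sphere, at an adjusted p under 0.05. Of the 7 other members tested, 0 were called at either stage by edgeR, although 3 of the 7 had an unadjusted p under 0.05 at each. With DESeq2, 4 members were called at the 4-8-cell stage and 3 at sphere, smchd1 included. DESeq2 called more genes in general: 1927 of the 15919 that passed the filter at the 4-8-cell stage and 2716 of 16250 at sphere. With edgeR these counts were 482 and 1265, so the shares above do not apply to the DESeq2 calls. The libraries of wt and MZ did not overlap for 5 of the 8 members tested at the 4-8-cell stage and for 3 of 8 at sphere, where 28.9% and 34.5% of all genes tested did not overlap.

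**Figure D3:**
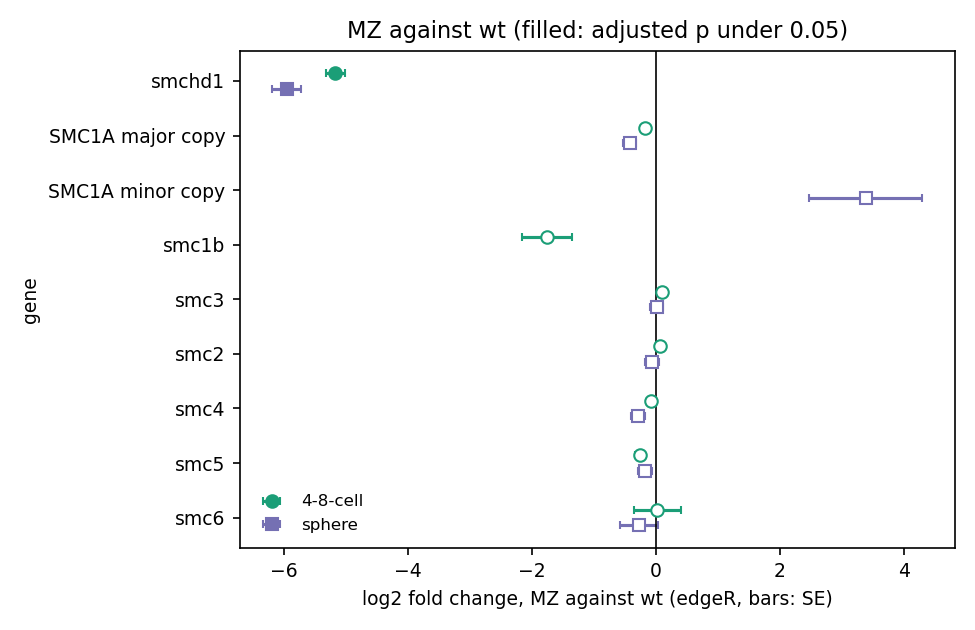
Log2 fold change of MZ against wt for each member tested (x axis, edgeR, bars are SE), with circles for the 4-8-cell stage and squares for sphere, filled where the adjusted p was under 0.05. smchd1 is the 1 member with filled symbols, at -5.17 and -5.95, and the other members with group means above 100 CPM lie between -0.42 and 0.11.

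Among the cohesin genes, the SMC1A major copy was somewhat lower in MZ embryos at both stages without passing the test. At sphere it was counted at 523, 480 and 424 CPM in wt and at 363, 370 and 341 CPM in MZ libraries. The 3 MZ libraries were all below the 3 wt libraries. The difference was -0.42 on the log2 scale (SE 0.11, nominal 95% interval -0.64 to -0.20) and missed the threshold with edgeR (adjusted p = 0.0572). Intervals given here and below are nominal: they take a normal distribution and are somewhat too narrow for 3 libraries a group. The difference passed with DESeq2 (adjusted p = 0.00949), in a fit to all 12 libraries (0.0111) and without wt sphere replicate 3 (0.0383). It was not called with other scalings or count filters, on log2(TPM + 1) or log2(TPM + 0.1), or on leaving out any other library of that stage.

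At the 4-8-cell stage the SMC1A major copy was counted at 392, 366 and 380 CPM in wt and at 333, 350 and 312 CPM in MZ libraries. Again the groups did not overlap. The difference was -0.17 (SE 0.057, edgeR adjusted p = 0.14, DESeq2 adjusted p = 0.0451). Its partner in cohesin, smc3, was counted at 320, 330 and 330 CPM in wt and at 338, 375 and 327 CPM in MZ embryos at this stage, and the groups overlapped. smc3 differed by 0.11 (nominal 95% interval -0.018 to 0.23) at the 4-8-cell stage and by 0.017 (-0.19 to 0.22) at sphere.

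Because SMC1A and SMC3 proteins are used together, the ratio of their messages within a library was compared as well, which needs no scaling between libraries. The ratio of the SMC1A major copy to smc3 was 1.3, 1.18 and 1.23 in wt and 1.05, 0.983 and 1.02 in MZ embryos at the 4-8-cell stage. At sphere it was 1.57, 1.33 and 1.42 in wt and 1.07, 1.09 and 1.05 in MZ embryos. In both stages every wt library had a higher ratio than every MZ library. Of single genes, 28.9% and 34.5% did not overlap between genotypes at the 2 stages, and how often ratios of other gene pairs separate was not measured. The exact permutation test gave p = 0.1 each time, the smallest that 3 against 3 libraries allow, and 0.171 after adjustment over the 12 ratio comparisons made.

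smc1b pairs with SMC3 in meiotic cells and was rare in these embryos. At the 4-8-cell stage it had 2.18, 3.58 and 2.71 CPM in wt and 1.17, 0.566 and 0.731 CPM in MZ libraries, from 180 and 46 counts. The groups did not overlap. The difference was -1.75 (SE 0.41), which is 3.36-fold, and it missed the threshold with edgeR (adjusted p = 0.0717) but passed with DESeq2 (0.0168) and in a fit to all 12 libraries (0.0443). It was not called in any other setting that tested it, each library left out included. At sphere smc1b had 49 counts over the wt and 14 over the MZ libraries and fell under the filter on low counts. The ratio of the SMC1A major copy to smc1b was lowest in a wt 4-8-cell library, at 93.8, so that the mitotic form prevailed in all 12. Its highest value, 2640, came from MZ sphere replicate 1, where smc1b had 1 count. MZ sphere replicates 2 and 3 were at 970 and 595.

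The SMC1A minor copy was at 0, 6 and 31 counts in the MZ and 2, 2 and 4 counts in the wt 4-8-cell libraries. At sphere it had 4, 23 and 28 counts in MZ and 1, 5 and 0 counts in wt libraries. The MZ sphere libraries were all above the wt sphere libraries in CPM, whereas at the 4-8-cell stage the groups overlapped and 1 MZ library held most of the counts. At sphere the difference was 3.39 (SE 0.91, edgeR adjusted p = 0.0619), on 55 counts against 6. It passed without wt sphere replicate 2, which held 5 of the 6 wt counts, at 5.16 (adjusted p = 0.0375), with DESeq2 (0.0354) and with no filter on low counts (0.0471). No wt sphere count reached the filter's minimum of 10, so the gene passed that filter only through its MZ counts. These fits use the same few counts and give no separate support.

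The condensin pair, smc2 and smc4, packs chromosomes for mitosis. Neither gene was called in either genotype comparison. smc2 was counted at 446, 445 and 469 CPM in wt and at 478, 501 and 432 CPM in MZ 4-8-cell embryos, which overlapped. It differed by 0.07 (nominal 95% interval -0.051 to 0.19) at that stage and by -0.06 (-0.30 to 0.18) at sphere. smc4 differed by -0.08 (-0.18 to 0.024) at the 4-8-cell stage, where the 3 MZ libraries, at 498 to 521 CPM, lay just below the wt libraries, at 522 to 552 CPM. At sphere smc4 differed by -0.29 (-0.52 to -0.057, edgeR adjusted p = 0.155) with overlapping libraries.

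Within libraries, the ratio of smc2 to smc4 was higher in the mutants at both stages. It was 0.877, 0.836 and 0.875 in wt and 0.987, 0.99 and 0.892 in MZ embryos at the 4-8-cell stage. At sphere it was 0.704, 0.704 and 0.708 in wt and 0.801, 0.828 and 0.849 in MZ embryos. No wt library reached the lowest MZ library of its stage, and the exact permutation p was again 0.1 at both stages and 0.171 adjusted. Single genes did not overlap in 28.9% and 34.5% of cases at the 2 stages, and the rate for ratios of gene pairs was not measured.

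The genes of the SMC5/6 complex, which acts in DNA repair, differed from each other more than between genotypes. smc5 was counted at 158, 164 and 146 CPM in wt and at 126, 141 and 121 CPM in MZ 4-8-cell embryos, with the MZ libraries all lower. Its difference was -0.26 (SE 0.076, edgeR adjusted p = 0.118, DESeq2 adjusted p = 0.0389) there and -0.17 (SE 0.11, adjusted p = 0.342) at sphere. smc6 had 4.75, 4.64 and 3.97 CPM in wt and 3.76, 2.83 and 6.83 CPM in MZ 4-8-cell embryos, and the groups overlapped. With so few counts the interval of its difference was wide, -0.70 to 0.76 at the 4-8-cell stage and -0.88 to 0.34 at sphere, so that changes of some size were not detectable.

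The TPM ratio of smc5 to smc6 was 15 to 34.2 over the 12 libraries and overlapped between wt and MZ at both stages. This ratio of a pair that works as a dimer was thus far from the ratios near 1 of the cohesin and condensin pairs. The gene length that the authors' quantification assigned to smc6 varied from 1849 to 3354 bases between libraries, that of smc5 from 3020 to 3345 bases, and that of smc2 was fixed at 4073 bases. The TPM of smc6 moves with that length. Counts use no length, and smc5 had 10074 and smc6 288 of them over the wt 4-8-cell libraries. Over the MZ sphere libraries they had 3925 and 129 counts. With counts in place of TPM, the differences of this ratio between groups stayed within the spread of the libraries. How much of the level of the TPM ratio comes from the assigned length was not tested.

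**Figure D4:**
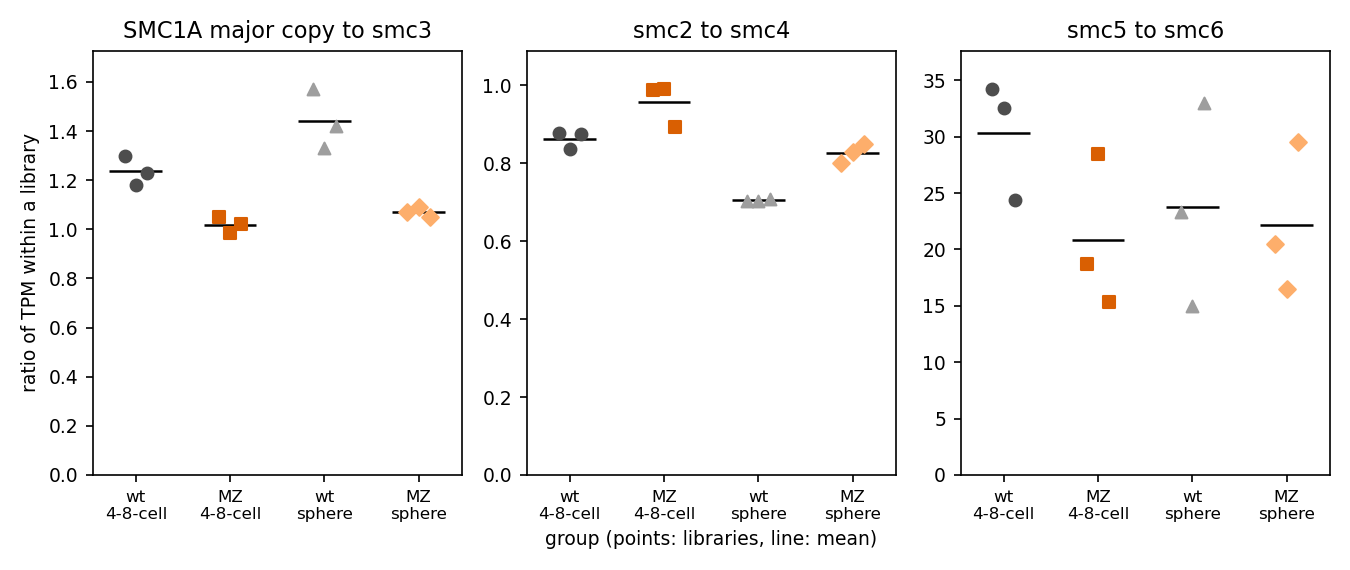
Ratio of TPM within each library for the SMC1A major copy to smc3, smc2 to smc4 and smc5 to smc6, by group, with points for libraries and a line for the group mean. The first ratio averages 1.24 and 1.44 in wt against 1.02 and 1.07 in MZ embryos, the second 0.863 and 0.705 against 0.957 and 0.826, and the third has overlapping groups.

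The stage comparison asked how the supply of each gene changed as zygotic transcription began. Its values depend on the scaling: on log2(TPM + 1), the median gene was 0.48 lower at sphere in wt and 0.35 lower in MZ embryos, where it was within 0.012 of 0 after TMM scaling. Libraries hold shares of poly-A RNA from whole embryos, so a change in RNA per cell, in the share of cells that hold a message or in its poly-A tail cannot be told apart. After TMM scaling 24.7% of all genes were called higher and 23.6% lower at sphere in wt embryos, and 20% higher and 19.6% lower in MZ embryos.

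Of the 8 members tested, 1 was called higher and 2 lower in wt embryos, and 0 higher and 1 lower in MZ embryos. In wt, the SMC1A major copy rose by 0.39 on the log2 scale (SE 0.086, edgeR adjusted p = 0.0027), between means of 379 ± 13.4 and 476 ± 50.1 CPM, but on log2(TPM + 1) it was 0.21 lower at sphere, a smaller drop than that of the median gene. smc5 fell by 0.34 (SE 0.092, adjusted p = 0.00953), from 156 ± 9.02 to 118 ± 10.1 CPM, and was also lower on log2(TPM + 1), with a difference of -0.88. smc1b fell by 1.40 (SE 0.42, adjusted p = 0.0158), from 2.83 ± 0.71 to 1.02 ± 0.15 CPM. The call for smc1b was lost without wt 4-8-cell replicate 2 (adjusted p = 0.0595) or without wt sphere replicate 1 (0.0538).

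After TMM scaling smchd1 itself was not called between the stages in wt embryos. It went from 235 ± 24 to 226 ± 56.8 CPM, a difference of 0.01 (nominal 95% interval -0.32 to 0.34, edgeR adjusted p = 0.965). On log2(TPM + 1) it was called lower at sphere, at -0.60 (limma adjusted p = 0.013), beside the drop of 0.48 of the median gene. In MZ embryos the small remainder fell by 0.76 (SE 0.22, adjusted p = 0.0158), from 6.42 ± 1.23 to 3.65 ± 0.34 CPM, and no sphere library reached the lowest 4-8-cell library. That call was lost without MZ 4-8-cell replicate 1 (adjusted p = 0.0622) or without MZ sphere replicate 3 (0.0553).

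The test of the difference between these stage changes, the genotype by stage interaction, called 1.1% of all genes higher and 0.884% lower. Of the 8 members tested, 0 were called by edgeR, and smchd1 was the 1 member with an unadjusted p under 0.05 (-0.77, SE 0.28, adjusted p = 0.143). With DESeq2 the adjusted p for smchd1 was 0.0807. The other 7 members had interaction values from -0.29 to 0.29.

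**Figure D5:**
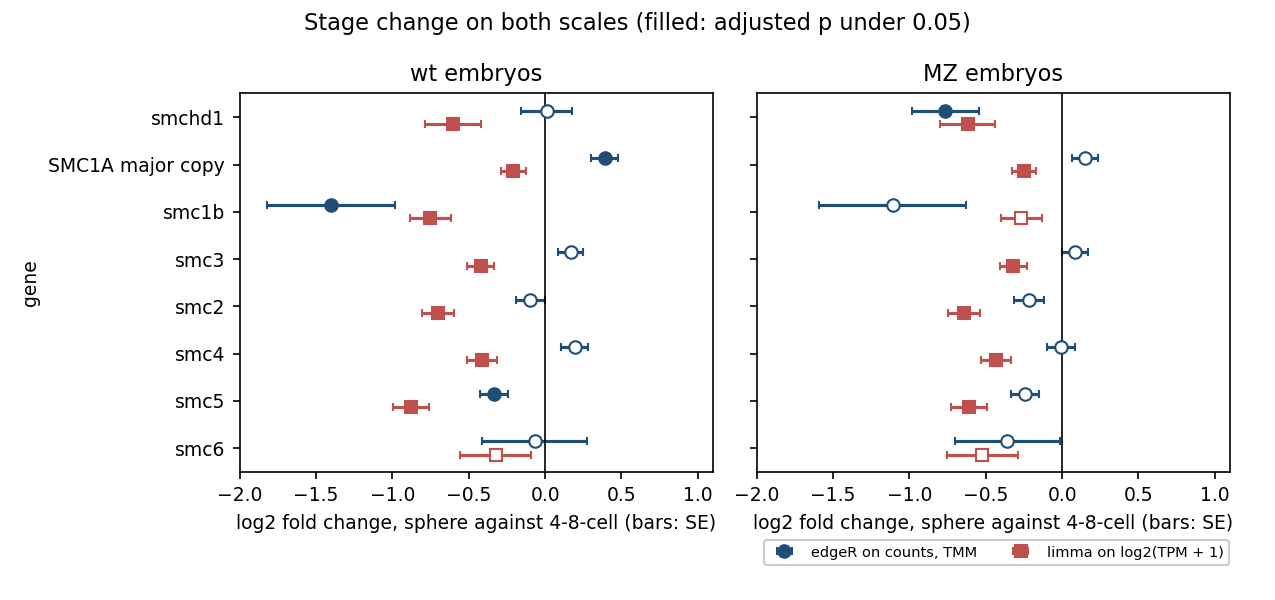
Log2 fold change of sphere against 4-8-cell in wt and in MZ embryos for 8 members (bars are SE), by edgeR on TMM-scaled counts (circles) and by limma on log2(TPM + 1) (squares), filled where the adjusted p was under 0.05. For the SMC1A major copy and smc3 in both genotypes, and for smchd1 and smc4 in wt, the circle and the square lie on opposite sides of 0.

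The SMC genes work with non-SMC partners, and the same comparisons were made for these. Of 23 cohesin subunits and regulators tested, 1 was called higher and 0 lower in 4-8-cell MZ embryos, and 2 higher and 0 lower at sphere, with medians of 0.018 and -0.016 beside 0.0034 and -0.0024 for all genes. Over all genes, 1.33% were called higher at the 4-8-cell stage and 3.75% at sphere. ESCO2, an acetyltransferase that acts on SMC3 to make cohesin hold sister chromatids, was counted at 162 to 203 CPM in the 3 wt and 316 to 340 CPM in the 3 MZ 4-8-cell libraries. It was higher in MZ than in wt embryos by 0.87 (SE 0.09, edgeR adjusted p = 0.00946), with no overlap. At sphere the wt libraries averaged 328 ± 58.1 CPM and the MZ libraries 258 ± 26.8 CPM, a difference of -0.35 (SE 0.15, adjusted p = 0.175).

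esco1, the other acetyltransferase of SMC3, was higher in MZ than in wt embryos at sphere, at 111 ± 9.76 against 76 ± 9.89 CPM (0.54, SE 0.13, edgeR adjusted p = 0.0443). Between the stages esco1 was called lower at sphere in both genotypes, at -0.99 in wt and -0.65 in MZ embryos. STAG1 codes for a subunit that rides on the cohesin ring. Of the 2 genes with this symbol, the rarer 1 (ENSDARG00000061205) was also higher in MZ embryos at sphere, at 31.2 ± 3.82 against 17.3 ± 3.06 CPM (0.84, SE 0.20, adjusted p = 0.045). The more abundant 1 (ENSDARG00000062137) was not called, at 239 ± 19.4 against 206 ± 24.8 CPM (0.20, SE 0.12, edgeR adjusted p = 0.3), and its libraries overlapped. The calls of STAG1 and esco1 stand close to the threshold. That of STAG1 was lost on leaving out any of the 6 libraries (adjusted p = 0.0555 to 0.156), and that of esco1 on leaving out any but wt sphere replicate 3 (0.0614 to 0.175). On log2(TPM + 1) both missed the threshold, at 0.0907 and 0.0736 by limma.

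Between the stages, the cohesin partners moved in both directions after TMM scaling, 9 higher and 7 lower in wt and 4 higher and 6 lower in MZ embryos. Of those called higher, 5 of 9 and 2 of 4 were lower in mean TPM. The shares over all genes were 24.7% higher and 23.6% lower in wt, and 20% and 19.6% in MZ embryos, beside these counts out of 23. sgo2, a shugoshin that guards cohesin at centromeres, fell by 1.82 (SE 0.14, edgeR adjusted p = 1.74e-06) in wt and by 1.21 (SE 0.14, adjusted p = 4.88e-05) in MZ embryos. rad21a, the gene of the kleisin that closes the ring, rose by 1.12 (SE 0.093) in wt and 0.74 (SE 0.092) in MZ embryos. CTCF, which stops cohesin at boundaries, rose by 1.13 (SE 0.13) and 0.99 (SE 0.13), and these 3 genes kept their directions in mean TPM.

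Of the 7 condensin subunits and regulators, 0 were called by edgeR between genotypes at either stage. The shares of all genes were 1.33% higher and 1.7% lower at the 4-8-cell stage, and 3.75% and 4.04% at sphere. For so few genes, 0 calls are near those shares. Between stages in wt embryos, 2 of the 7 were called higher and 2 lower at sphere, beside 24.7% and 23.6% of all genes. mcph1, microcephalin, which restrains condensin II, fell by 0.69 (SE 0.16, adjusted p = 0.00325). The condensin I genes NCAPG (0.45, SE 0.10) and NCAPD2 (0.26, SE 0.085) were called higher after TMM scaling but were lower at sphere in mean TPM.

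Of 6 SMC5/6 partners, 0 were called higher and 1 lower in MZ embryos at sphere, beside 3.75% and 4.04% of all genes. nsmce4a, the kleisin of this complex, had 139 to 178 CPM in wt and 104 to 106 CPM in MZ sphere libraries. It was lower in MZ than in wt embryos by 0.59 (SE 0.12, edgeR adjusted p = 0.0286). The call was lost with no scaling factor (adjusted p = 0.0519), on log2(TPM + 1) (0.0886) and without wt sphere replicate 1 or any of the 3 MZ sphere replicates (0.0534 to 0.145). At the 4-8-cell stage the means were 102 ± 8.9 CPM for wt and 112 ± 8.37 CPM for MZ embryos. Between stages in wt embryos, slf1, which recruits the complex to damaged DNA, fell by 1.44 (SE 0.18), slf2 fell by 0.43 (SE 0.13), and NSMCE1, a ubiquitin ligase subunit, was called higher at 0.30 (SE 0.10) but was lower in mean TPM.

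Of the 3 genes of the Mre11 complex, whose RAD50 is shaped like an SMC protein, 0 were called between genotypes by edgeR. That is near the shares of all genes, 1.33% higher and 1.7% lower at the 4-8-cell stage, 3.75% and 4.04% at sphere. RAD50 itself was at -0.56 (SE 0.15, adjusted p = 0.0878) at the 4-8-cell stage, and MRE11 was called higher at sphere in wt (0.44, SE 0.094) after TMM scaling but was lower in mean TPM. nbn changed by -0.01 (SE 0.19) between the stages in wt.

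SMCHD1 is known to bind LRIF1, which in turn contacts HP1 proteins. Of the 6 genes of this list, 0 were called between genotypes at either stage by edgeR. That is near the shares of all genes, 1.33% higher and 1.7% lower at the 4-8-cell stage, 3.75% and 4.04% at sphere. lrif1 was a late message: it had 2.31 to 3.37 CPM in the 6 libraries of the 4-8-cell stage and 12.3 to 27.5 CPM in the 6 of sphere. It rose by 2.43 (SE 0.25, adjusted p = 1.19e-05) in wt and by 2.76 (SE 0.26, adjusted p = 8.48e-06) in MZ embryos, also in mean TPM. Wt embryos of the 4-8-cell stage held 1.5 ± 0.33 TPM of lrif1 beside 61.1 TPM of smchd1. At sphere lrif1 had 5.28 ± 0.79 TPM in wt and 8.39 ± 1.72 TPM in MZ embryos, a difference of 0.52 after TMM scaling (SE 0.25, adjusted p = 0.209).

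Between the stages, 4 of the 6 genes of this list, lrif1 included, were called higher and 1 lower in each genotype. Over all genes, 24.7% were called higher and 23.6% lower in wt, and 20% and 19.6% in MZ embryos. Of the HP1 genes, CBX3 rose by 0.66 (SE 0.075) and CBX1 (ENSDARG00000004189) by 0.77 (SE 0.086) in wt embryos at sphere, directions kept in mean TPM in wt. The gene called lower in wt was the other with the symbol CBX1 (ENSDARG00000054442), at -1.64 (adjusted p = 0.0032), and in MZ it was cbx3b, at -0.47 (adjusted p = 0.0416). In MZ embryos CBX3 and the first CBX1 gene were called higher at 0.38 and 0.33 after TMM scaling but were lower in mean TPM.

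The other GHKL ATPases of chromatin were measured as relatives of SMCHD1 by its ATPase. Of 4 tested at the 4-8-cell stage and 5 at sphere, 0 were called between genotypes by edgeR. That is near the shares of all genes, 1.33% higher and 1.7% lower at the 4-8-cell stage, 3.75% and 4.04% at sphere. The paralogues morc3a and morc3b exchanged places between the stages. morc3a went from 56.7 ± 17.9 to 11.9 ± 1.28 CPM in wt (-2.19, SE 0.21, adjusted p = 5.6e-06) and morc3b from 0.194 ± 0.13 to 86.3 ± 30.7 CPM (8.76, SE 0.49, adjusted p = 1.25e-07). MZ embryos did likewise, with -2.18 (SE 0.21) and 10.56 (SE 0.60), and both directions held in mean TPM. At the 4-8-cell stage morc3b had 13 counts in wt and 2 in MZ embryos, against 4132 and 2208 at sphere. It passed the filter on low counts only through its sphere counts, and the size of its rise rests on the few early counts. TOP2A, topoisomerase II, fell by 1.15 (SE 0.14) in wt and by 1.66 (SE 0.15) in MZ embryos.

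Of the genes of the meiotic chromosome axis, the setting in which smc1b works, 4 of 6 were tested. sycp2, a component of that axis, had 0.258 to 0.734 CPM in wt and 1.97 to 4.27 CPM in MZ sphere libraries, from 25 and 127 counts, and was called higher (2.64, SE 0.50, edgeR adjusted p = 0.0253). Its 25 wt counts over 3 libraries lay under the filter's mean of 10, so it passed that filter through its MZ counts. Without wt sphere replicate 1 or 3 or MZ sphere replicate 2 or 3 the call was lost (adjusted p = 0.0508 to 0.114), as it was in a fit to all 12 libraries (0.0554) and on log2(TPM + 1) (0.0659). SYCP3 was at 1.58 (SE 0.44, adjusted p = 0.0662), SYCP1 at 0.03 (SE 1.08) and spo11 at -1.05 (SE 0.55). smc1b had 0.131, 0.373 and 0.543 CPM in the same MZ sphere libraries against 0.856, 1.16 and 1.04 CPM in wt. These values rest on 14 counts in MZ and 49 in wt, and smc1b fell under the filter at sphere and was not tested there.

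smchd1 lies on chromosome 7, and the SMC genes are spread over chromosomes 1, 10, 15, 17, 22, 23 and 25, with smc1a and smc1al both on 23 in the RefSeq gene table of assembly GRCz12tu. Of the 20 protein-coding genes nearest to smchd1 in that order, 13 were found in the tables and 11 were tested. At the 4-8-cell stage 0 were called higher and 1 lower, and at sphere 0 higher and 2 lower. Over all genes, 1.7% were called lower at the 4-8-cell stage and 4.04% at sphere, and the difference in share was not tested. myl12.1, the gene of a myosin light chain and the third gene on 1 side of smchd1, was lower at both stages, by -0.53 (SE 0.082, edgeR adjusted p = 0.0286) and -0.77 (SE 0.093, adjusted p = 0.0075). mettl4, a methyltransferase gene next to smchd1 on the other side, was lower at sphere by -0.72 (SE 0.15, adjusted p = 0.0296) and differed by -0.18 (adjusted p = 0.307) at the 4-8-cell stage. The myl12.1 call at the 4-8-cell stage was lost on leaving out any library but MZ replicate 2 (adjusted p = 0.0568 to 0.0753), and at sphere on leaving out MZ replicate 2 or 3 (0.0635 and 0.0545). The mettl4 call was lost with no scaling factor (0.0535), on log2(TPM + 1) (0.106) and without wt sphere replicate 1 or 3 or MZ sphere replicate 2 or 3 (0.0555 to 0.141).

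Finally, the genes whose levels most resembled those of smchd1 were sought by Pearson's r of log2(CPM + 0.5) over the 12 libraries, as a description. The points fall into 2 genotypes and 2 stages and are not independent of them. Of 13422 genes, 38 (0.283%) had an r above 0.9. Among the 5 highest were opn7d, an opsin gene, at 0.989, MTA3, a subunit of the NuRD chromatin complex, at 0.976, SNU13, of the spliceosome, at 0.949 and mtmr3, a lipid phosphatase gene, at 0.944. opn7d had 10.8 ± 1.13 and 12.6 ± 3.65 CPM in wt 4-8-cell and sphere embryos and 0.0378 ± 0.065 and 0.0259 ± 0.045 CPM in MZ embryos. MTA3 differed less, with 60.6 ± 2.56 against 41.5 ± 1.53 CPM at the 4-8-cell stage.

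The 5 lowest were ANTXR1 at -0.971, HOXC10, a body patterning gene, at -0.963, ACOXL at -0.954, ARSJ at -0.95 and lgals9l3 at -0.949. They were near 0 in wt and low in MZ embryos, as ACOXL, with 0.0469 ± 0.0043 CPM in wt and 8.13 ± 0.73 CPM in MZ 4-8-cell embryos. Within its own family, smchd1 had an r of 0.759 with smc1b, 0.712 with smc4, 0.708 with the SMC1A major copy, 0.541 with smc5, 0.277 with smc6, 0.0743 with smc2, -0.347 with smc3 and -0.684 with the SMC1A minor copy, so that 0 of its 8 relatives passed 0.9.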

How the data were processed

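RNA of 30 to 50 embryos per sample was poly-A selected and sequenced from both ends by the authors, on the zebrafish build danRer10 with an Ensembl annotation. Bowtie and RSEM are credited in the submitters' processing notes, and their versions are not given in the sources used here. The deposited tables hold, per gene, expected counts, which RSEM splits between genes that share reads, TPM computed by the authors from those counts and the gene length, and the effective length itself, another deposited column. Expected counts of all 9 members were whole numbers in all 12 libraries.

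Groups were taken from the labels. Whether samples of a group came from separate clutches is not given by the labels, so p-values measure the spread between these samples. Expected counts were rounded and 1 ribosomal RNA gene was removed. Genes with a mean TMM-scaled count above 10 were tested with edgeR 4.0.16 (R 4.3.3), by genotype within a stage (6 libraries) and by stage and interaction in 1 fit to 12 libraries, with Benjamini-Hochberg adjustment over all genes tested. SE are those implied by the F statistic. Alternatives were DESeq2 1.42.0, limma 3.58.1 on log2(TPM + 1) and log2(TPM + 0.1), other scalings and filters, a replicate block and each library left out. The ratio of counts in place of TPM was chosen after seeing the data. Whether replicate numbers pair the samples is not given by the labels, and the main tests did not pair them.

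All members were named, with every listed partner gene called between genotypes or in the interaction, up to 3 more per list by adjusted p in the wt stage comparison, the 5 most and 5 least correlated genes, and neighbours that were called. Of the genes this rule names, 1 is not reported here. Members and lists were chosen with earlier results of these data known. Symbols, from a table of gene names, matched 25752 identifiers. A symbol in capitals is that of the table.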

Additional observations from a re-analysis of the deposited data

Results flagged for a closer look

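ESCO2, which acetylates SMC3, and nsmce4a, of the SMC5/6 complex, changed differently between the stages in the 2 genotypes by the test of that difference. The genotype by stage interaction was -1.22 for ESCO2 (SE 0.19, edgeR adjusted p = 0.0169) and -0.74 for nsmce4a (SE 0.15, edgeR adjusted p = 0.0311). ESCO2 rose by 0.92 (SE 0.13) from the 4-8-cell stage to sphere in wt embryos and was at -0.30 (SE 0.13) in MZ embryos. nsmce4a rose by 0.68 (SE 0.10) in wt embryos and was at -0.06 (SE 0.10) in MZ embryos. The ESCO2 interaction missed the threshold without MZ sphere replicate 2 (adjusted p = 0.062) or 3 (0.052) and passed it in the other fits, and that of nsmce4a missed it with no scaling factor (0.0511), on both TPM scales (0.0758 and 0.0853) and on leaving out any library but wt 4-8-cell replicate 1, wt sphere replicates 2 and 3 and MZ sphere replicate 1 (0.053 to 0.0887).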

How the results depend on the processing

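The loss of smchd1 in MZ embryos kept its direction and its call in all settings. With DESeq2, 1927 genes were called at the 4-8-cell stage, 2716 at sphere and 1453 in the interaction, against 482, 1265 and 327 with edgeR, and 4, 3 and 5 family members were called at the 4-8-cell stage, at sphere and between stages in wt, against 1, 1 and 3. A fit to all 12 libraries called 2582 genes at sphere and 2 members at each stage. With a replicate block, 66 genes were called at the 4-8-cell stage and 2 members at sphere, the SMC1A major copy passing (-0.41, adjusted p = 0.0445), and the myl12.1 call at the 4-8-cell stage was lost (adjusted p = 0.0852). After each group's mean was taken out, same-numbered libraries correlated at -0.0615 to 0.296. Across genotypes, each 4-8-cell library resembled its own number most, so whether the numbers pair the samples is not settled. With no filter 2 members were called at sphere, and with no scaling factor 3 between stages in MZ. Shares of all genes called between stages with DESeq2 or with no scaling factor are not given here. The counts of members between stages in those settings are thus not a result about the family.

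On log2(TPM + 1) and log2(TPM + 0.1), 7 and 7 members were called between stages in wt and 6 and 7 in MZ. There the stage change turned negative in wt for smchd1 (-0.60 and -0.62), the SMC1A major copy (-0.21 and -0.21), smc3 (-0.42 and -0.43), smc4 (-0.41 and -0.42) and METTL4 (-0.00265 and -0.0033), and in MZ for the SMC1A major copy (-0.25 and -0.25) and smc3 (-0.32 and -0.32). TPM are not scaled for the make-up of the RNA pool, and the median gene moved with them. On the 2 TPM scales it was at -0.485 and -0.59 in wt and at -0.35 and -0.408 in MZ embryos. The share of all genes called on these scales is not given here, so these counts of members are not a result about the family. Leaving out 1 library each gave 125 to 333 genes called at the 4-8-cell stage, 83 to 1247 at sphere and 31 to 810 in the interaction, and 1 to 2 members at sphere, 2 to 5 between stages in wt and 0 to 1 in MZ. Between stages these fits called 7073 to 7679 genes in wt and 4885 to 5950 in MZ, where the main fit tested 16525. In the genotype comparison at sphere, 83 genes were called without MZ replicate 2, 104 without MZ replicate 3 and 427 without wt replicate 1. The highest interaction count came without wt sphere replicate 3. Calls near the threshold thus rest on 3 libraries a group, and smc1b, smc6 and the SMC1A minor copy on few counts.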
